A study of Mus musculus with 26 samples.

Results

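Described here are 9 of the 31735 genes listed in the files of all libraries: Ubr7, Spata2, Ralgds, Gabpb2, Cacul1, Snx12, Zfp142, Atxn7l1 and Vps33a. They were picked by symbol because their levels were higher in the 3 saline libraries without withdrawal than in the nonescalating cocaine libraries or the saline withdrawal libraries. The choice therefore used the measured values of those 3 groups, and it set no numeric threshold. All differences among the 3 groups are given below as a description, with no test. All 9 genes passed the filter on low counts that left 15854 genes for testing.

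Adult mice with long access to cocaine or saline by intravenous self-administration gave the samples, which were taken from the accumbens nucleus, part of the ventral striatum and of the brain's reward system. Every animal carried the Drd2-TRAP transgene of line CP101 on a background of FVB/N-Swiss Webster crossed to C57BL/6 for at least 9 generations. In such mice the Drd2 promoter drives ribosomal protein L10a tagged with EGFP, so antibodies against EGFP pull down polysomes, the ribosomes engaged on messenger RNA, from the cells that use this promoter. In the accumbens these are chiefly D2 medium spiny neurons, which project out of the striatum, together with some cholinergic interneurons. RNA of the pulled-down polysomes was sequenced in 24 libraries: saline (n = 3), cocaine with stable intake, called nonescalating (n = 5), cocaine with rising intake, called escalating (n = 2), withdrawal after saline, called saline withdrawal (n = 6), and withdrawal after nonescalating cocaine, called nonescalating withdrawal (n = 8). Total RNA was sequenced as input in 1 saline and 1 nonescalating library. Library numbers up to 1825 are here called set 1 and those from 1836 set 2, which holds withdrawal libraries only. The titles set these groups, although the description field of the 5 nonescalating libraries also carries the word withdrawal. No label says whether a library is 1 animal, so n counts libraries, and p-values measure only the spread between libraries, which may be technical. The sources used here give no dose, session number or length of withdrawal.

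The 9 genes share no single pathway. Ubr7 and Spata2 act in ubiquitin signalling, the tagging of proteins with ubiquitin for degradation or signalling. Ralgds, Snx12 and Vps33a act around small GTPases and endosomes, the compartments that sort receptors taken up from the cell surface. Gabpb2, Zfp142 and Atxn7l1 encode nuclear proteins linked to transcription, and Cacul1 encodes a regulator of the cell cycle kinase CDK2. Medium spiny neurons do not divide, and all of these genes are broadly transcribed outside the brain as well.

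Because Gabpb2 encodes a subunit of the transcription factor GABP, an ETS factor, the promoters of the 9 genes were searched for its core motif CCGGAAG on either strand (CTTCCGG on the other). RefSeq windows (GRCm38.p6) of 300 bases, 250 before and 50 from the start site on, were found for all 9. The motif occurred in 4 of the 9 windows, and in 9.19% of 26742 mouse promoter windows of the same length. Among the 11079 windows of genes tested here the share was 16.3%. The 4 windows are shown up to 10 bases from the start site on, in the direction of transcription, because they hold the motif, which is in capitals.
Ubr7, chr12:102757725-102757984, plus strand: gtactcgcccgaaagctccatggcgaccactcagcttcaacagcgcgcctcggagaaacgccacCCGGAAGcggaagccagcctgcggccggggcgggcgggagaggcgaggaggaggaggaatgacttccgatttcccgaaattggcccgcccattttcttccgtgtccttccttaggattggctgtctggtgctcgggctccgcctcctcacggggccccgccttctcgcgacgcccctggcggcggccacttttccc
Spata2, chr2:167492865-167493124, minus strand: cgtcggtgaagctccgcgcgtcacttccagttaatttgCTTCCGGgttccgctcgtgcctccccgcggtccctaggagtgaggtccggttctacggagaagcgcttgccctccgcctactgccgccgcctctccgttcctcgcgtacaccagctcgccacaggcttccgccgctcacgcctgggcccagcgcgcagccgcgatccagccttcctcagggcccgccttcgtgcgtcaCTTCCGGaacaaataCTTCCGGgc
Snx12, chrX:101222554-101222813, minus strand: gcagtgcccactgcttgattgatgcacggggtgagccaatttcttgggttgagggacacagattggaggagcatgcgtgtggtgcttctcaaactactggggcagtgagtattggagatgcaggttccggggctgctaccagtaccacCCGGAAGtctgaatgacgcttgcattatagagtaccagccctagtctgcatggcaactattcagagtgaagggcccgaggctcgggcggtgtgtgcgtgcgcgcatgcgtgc
Zfp142, chr1:74588019-74588278, minus strand: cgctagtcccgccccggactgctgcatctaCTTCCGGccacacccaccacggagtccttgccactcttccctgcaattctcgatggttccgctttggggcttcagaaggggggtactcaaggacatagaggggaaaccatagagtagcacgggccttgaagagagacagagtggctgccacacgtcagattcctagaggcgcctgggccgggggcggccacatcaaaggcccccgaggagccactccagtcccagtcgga

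In the Spata2 promoter the motif stood 3 times, beginning 212 and 14 bases before the start site and 1 base after it. It began 186 bases before the start of Ubr7, 102 before that of Snx12 and 220 before that of Zfp142. The E box CACGTG, which reads alike on both strands, stood in 3 other members' windows, those of Ralgds, Cacul1 and Vps33a, against 7.25% of all promoter windows and 9.91% of those of tested genes. The Sp1 GC box GGGCGG or its complement CCGCCC stood in 6 of the 9, near its share of 62.7% among tested genes (36.2% of all windows). The CCAAT box stood in 2 of the 9, against 38.2% of the windows of tested genes, and the CRE motif TGACGTCA in none, against 3.16%. The 9 windows had a GC content of 53.7% to 71.0%, against a median of 52.7% over all windows. These matches are a description of the letters, and binding was not measured.

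Levels are given as CPM, counts per M, where M is 1e6, of the counts in genes after scaling by TMM factors. Counts in genes ran from 1.54 M to 17.5 M per pulled-down library (median 3.27 M), so 3 counts correspond to 0.171 to 1.95 CPM before that scaling. Of the 24 libraries, saline replicate 1 had the lowest median correlation with the others (Pearson r of log2 CPM 0.722), followed by nonescalating replicate 4 (0.732) and replicate 5 of nonescalating withdrawal in library set 2 (0.734). The highest was 0.842. Reads outside any annotated feature made up 57.0%, 29.7% and 45.6% of saline replicates 1, 3 and 4, against 29.7% to 62.5% over all 24. In saline, Drd2, the marker of the tagged cells, had 2131 CPM ± 713 (SD, n = 3). In nonescalating it had 1642 CPM ± 912 (SD, n = 5), with 247 CPM in replicate 4. In saline withdrawal Drd2 had 2207 CPM ± 724 (SD, n = 6). The saline libraries overlapped those of nonescalating and of saline withdrawal in the summed level of each of 10 marker lists. Among themselves they differed: without TMM factors, D2 neuron genes summed to 4863, 9306 and 4731 CPM in replicates 1, 3 and 4. Nuclear RNA genes had 35191, 8736 and 31024.5 CPM in the same order, and astrocyte genes 2032, 872 and 1807 CPM. Saline replicate 1 had the highest sum of 8 microglial genes, 408 CPM without TMM factors against 17.6 and 122 in saline replicates 3 and 4. It also had 7043 CPM of 9 endothelial and mural genes, against 1185 and 4197 in the other saline libraries. Oligodendrocyte genes stood out in saline replicate 4 instead, with a sum of 3265 CPM against 395 and 484 in replicates 1 and 3, 428 to 3841 in nonescalating and 247 to 617 in saline withdrawal. The microglial sum ran from 13.9 to 122 CPM in nonescalating and from 6.15 to 55.6 in saline withdrawal, and P2ry12, C1qa, C1qc and Tmem119 were each at 0 in at least 1 saline library. The vascular sum ran from 1185 to 6150 CPM in nonescalating and from 297 to 6117 in saline withdrawal, with no gene at 0 in saline. In nonescalating withdrawal it reached 7106 CPM. The part of these marker genes' cells in the levels below was not tested. In RNA from tissue, fewer cells of a type and less RNA per cell cannot be told apart.

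**Figure D1:**
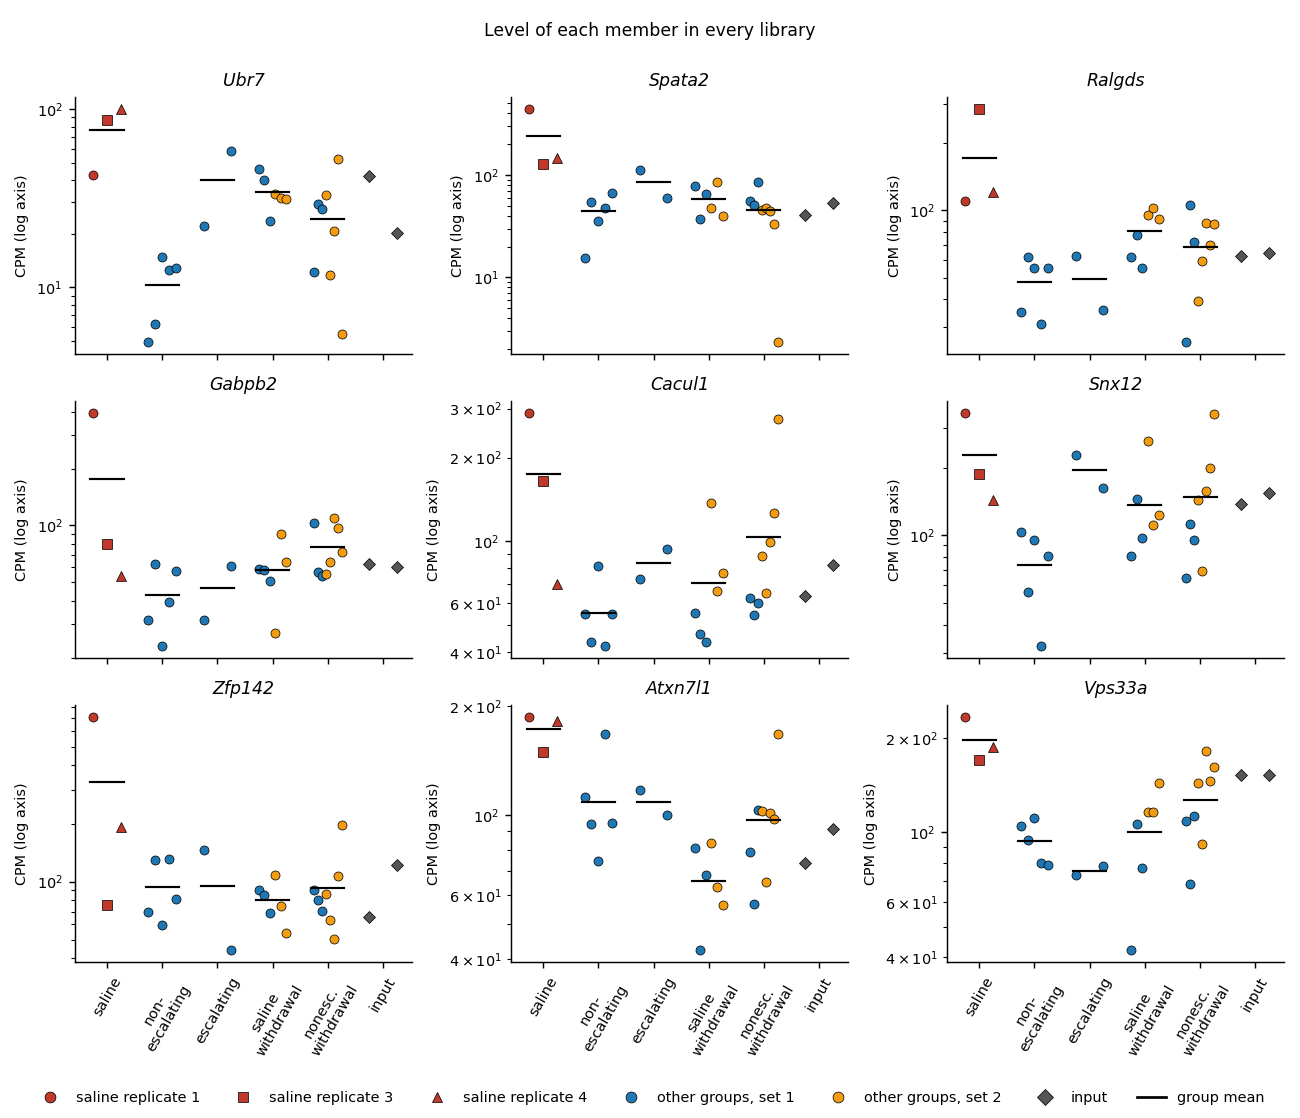
Level of each gene in every library, in CPM on a log axis, by group. Input levels come from a joint scaling of all 26 libraries, the others from a scaling of the 24 pulled-down ones. Saline libraries are red and marked by replicate, the other pulled-down libraries are blue (library set 1) or orange (set 2), inputs are grey diamonds, and bars are group means; saline replicate 1 is the highest of 24 in 7 of the 9 panels.

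Ubr7 (ENSMUSG00000041712, chromosome 12, 102757967 to 102777707, plus strand) encodes a protein with a UBR box and a PHD finger that acts as a ubiquitin ligase on histone H2B. Saline replicates 1, 3 and 4 had 42.8, 86.6 and 101 CPM, and nonescalating replicates 1 to 5 had 4.92, 6.24, 14.8, 12.6 and 12.8 CPM. The escalating libraries had 22.2 and 58.2 CPM. Saline withdrawal libraries ran from 23.5 to 46.3 CPM (median 32.4), and nonescalating withdrawal libraries from 5.45 to 52.6 CPM (median 24.2). The lowest saline library thus lay above all nonescalating libraries, and below the highest library of each other group. Saline replicate 1 was the lowest of the 3, as for Ralgds and no other of the 9 genes. The saline mean was 76.8 CPM ± 30.3 (SD, n = 3) against a nonescalating mean of 10.3 ± 4.38 (SD, n = 5), a fitted log2 fold change of -2.91 (SE 0.62). Against saline, saline withdrawal stood at -1.15 (SE 0.63). The nonescalating values of Ubr7 rest on 17 to 47 counts in a library. Ubr7 overlaps the predicted gene Gm20604 on the opposite strand.

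Spata2 (ENSMUSG00000047030, chromosome 2, 167481133 to 167492887, minus strand) encodes the adaptor that joins the deubiquitinase CYLD to the linear ubiquitin ligase complex. Its saline libraries had 443, 128 and 147 CPM, and its nonescalating libraries 15.3, 54.7, 35.9, 48.0 and 66.3 CPM. Escalating replicates 1 and 2 had 111 and 59.8 CPM. Spata2 ran from 37.0 to 86.0 CPM in saline withdrawal (median 56.6) and from 2.34 to 85.0 CPM in nonescalating withdrawal (median 46.7). All 3 saline libraries lay above all 21 other pulled-down libraries, with replicate 1 far above the other 2. The lowest value, 2.34 CPM, rests on 3 counts in replicate 5 of nonescalating withdrawal in library set 2. The log2 fold change was -2.44 (SE 0.57) in nonescalating and -1.75 (SE 0.60) in saline withdrawal, each against saline. Spata2 overlaps Rnf114 on the opposite strand, and the sources used here do not say whether counting used the strand, so reads in the overlap cannot be assigned to either.

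Ralgds (ENSMUSG00000026821, chromosome 2, 28513125 to 28553081, plus strand) encodes an effector of Ras that activates the GTPases RalA and RalB. The saline libraries had 109.6, 286 and 120.4 CPM, and the nonescalating libraries 35.2, 61.7, 55.4, 30.8 and 55.0 CPM. In the escalating libraries Ralgds had 62.4 and 35.7 CPM. Its range was 55.3 to 102 CPM in saline withdrawal (median 84.5) and 25.6 to 106 CPM in nonescalating withdrawal (median 71.2). Again all 3 saline libraries lay above the 21 others, but here replicate 3 stood out, and replicate 1 was just above the highest library outside saline. The saline mean of Ralgds was 172 CPM ± 98.8 (SD, n = 3). Against it stood 47.6 ± 13.7 (SD, n = 5) for nonescalating and 80.6 ± 18.9 (SD, n = 6) for saline withdrawal. The fitted log2 fold changes against saline were -1.85 (SE 0.44) and -1.24 (SE 0.46).

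Snx12 (ENSMUSG00000046032, chromosome X, 101097786 to 101222563, minus strand) encodes a sorting nexin, whose PX domain binds a phosphoinositide of early endosomes. Its levels were 351, 187 and 143 CPM in saline and 103, 55.8, 95.6, 32.0 and 80.6 CPM in nonescalating. The escalating libraries had 227 and 162 CPM, inside the range of saline. Saline withdrawal ran from 81.2 to 263 CPM (median 117) and nonescalating withdrawal from 64.7 to 347 CPM (median 128). Saline and nonescalating libraries did not overlap, whereas both withdrawal groups and the escalating group overlapped saline. The log2 fold change against saline was -1.63 (SE 0.44) in nonescalating, -1.17 (SE 0.45) in saline withdrawal and -0.22 (SE 0.56) in escalating, the last being the smallest of the 9 genes.

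Vps33a (ENSMUSG00000029434, chromosome 5, 123528659 to 123573038, minus strand) encodes a subunit of HOPS and CORVET, complexes that tether endosomes and lysosomes before they fuse. It had 234, 171 and 188 CPM in saline, and 105, 94.4, 111, 79.9 and 78.7 CPM in nonescalating. In the escalating libraries it had 73.1 and 78.0 CPM. The withdrawal libraries ran from 42.0 to 143 CPM after saline (median 111) and from 68.3 to 182 CPM after nonescalating cocaine (median 128). Saline lay above all nonescalating, escalating and saline withdrawal libraries, and 1 of 8 nonescalating withdrawal libraries reached into its range. The spread among saline libraries was small for Vps33a, with a ratio of the highest to the lowest of 1.37. Its log2 fold change was -1.07 (SE 0.34) in nonescalating and -1.35 (SE 0.36) in saline withdrawal.

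Gabpb2 (ENSMUSG00000038766, chromosome 3, 95181766 to 95217916, minus strand) encodes a beta subunit of GABP, which pairs with the DNA-binding subunit encoded by Gabpa. The saline libraries had 395, 79.7 and 54.4 CPM, and the nonescalating libraries 31.8, 62.4, 23.0, 39.6 and 57.3 CPM. The escalating values were 31.7 and 61.4 CPM. Gabpb2 ran from 27.1 to 89.8 CPM in saline withdrawal (median 58.5) and from 54.4 to 110.1 CPM in nonescalating withdrawal (median 68.3). Saline replicate 1 was the one saline library above all 21 others. Replicate 4, at rank 18 of 24, lay within the ranges of nonescalating, escalating and saline withdrawal and level with the lowest nonescalating withdrawal library. The group mean in saline, 176 CPM, had an SD of 189.5 (n = 3), larger than the mean itself. Fitted over all libraries, the log2 fold change was -2.04 (SE 0.51) in nonescalating and -1.67 (SE 0.53) in saline withdrawal. Gabpb2 overlaps the predicted gene Gm16740 on the opposite strand.

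Zfp142 (ENSMUSG00000026135, chromosome 1, 74565127 to 74588246, minus strand) encodes a protein with C2H2 zinc fingers. It had the widest spread in saline, with 714, 75.8 and 191 CPM, a ratio of 9.42 between the highest and the lowest library. The nonescalating libraries had 69.4, 129, 59.4, 131 and 81.5 CPM and the escalating libraries 145 and 44.0 CPM. Saline withdrawal ran from 54.4 to 108 CPM (median 80.1) and nonescalating withdrawal from 50.2 to 195 CPM (median 83.1). Saline replicate 3 ranked 15 of 24, inside the range of every other group, and the saline mean of 327 CPM had an SD of 340.1 (n = 3). The log2 fold change was -1.80 (SE 0.50) in nonescalating and -2.10 (SE 0.52) in saline withdrawal. Zfp142 overlaps Plcd4 on the opposite strand.

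Atxn7l1 (ENSMUSG00000020564, chromosome 12, 33147693 to 33373185, plus strand) encodes a relative of ataxin 7, a subunit of the deubiquitinase module of the SAGA coactivator. Its saline libraries were the closest together of the 9 genes, at 186, 149 and 182 CPM. Nonescalating libraries had 112, 94.4, 74.5, 167 and 94.8 CPM, and escalating libraries 117 and 99.97 CPM. In saline withdrawal the range was 42.2 to 83.4 CPM (median 65.6), and in nonescalating withdrawal 56.7 to 167 CPM (median 99.5). Saline lay above all saline withdrawal and escalating libraries, while nonescalating replicate 4 and 1 nonescalating withdrawal library passed the lowest saline value. The log2 fold change was -0.67 (SE 0.37) in nonescalating, the smallest of the 9, and -1.53 (SE 0.38) in saline withdrawal. Atxn7l1 overlaps its antisense gene Atxn7l1os2.

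Cacul1 (ENSMUSG00000033417, chromosome 19, 60524696 to 60581025, minus strand) encodes a protein with a cullin domain that binds CDK2. The saline libraries had 289.8, 165 and 70.3 CPM and the nonescalating libraries 54.8, 43.3, 81.1, 41.9 and 55.0 CPM. Escalating libraries had 73.3 and 93.5 CPM. Saline withdrawal ran from 43.5 to 138 CPM (median 60.9) and nonescalating withdrawal from 54.3 to 274 CPM (median 76.9). Saline replicate 4 lay inside the ranges of nonescalating and both withdrawal groups and below both escalating libraries. Replicate 3 lay above all but 1 of the 21 libraries outside saline. The log2 fold change was -1.66 (SE 0.44) in nonescalating and -1.91 (SE 0.46) in saline withdrawal.

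Set side by side, the saline mean was the highest of the 5 group means for all 9 genes, as the choice of genes fixes against 2 of the groups. The nonescalating mean was the lowest for 6 of them, all but Zfp142, Atxn7l1 and Vps33a, and the choice of genes favours low means there. In the order of the group means, the saline mean and the next one lay less than the larger of their SDs apart for 6 genes, all but Ubr7, Atxn7l1 and Vps33a. Below saline, 26 of 27 neighbouring means lay less than the larger SD apart. The exception was Vps33a, where both escalating libraries lay below all nonescalating libraries. Per kilobase of exon, the saline mean level ran from 11.4 ± 12.3 (SD, n = 3) CPM per kilobase for Gabpb2 to 76.9 ± 37.2 for Snx12, and Spata2 had 53.0 ± 39.1. In nonescalating the order by length-corrected level still began with Snx12 (24.9 ± 9.96, SD, n = 5), followed by Vps33a (19.6 ± 3.02), and ended with Gabpb2 (2.77 ± 1.08).

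All 3 saline libraries lay above all 5 nonescalating libraries for 5 of the 9 genes (Ubr7, Spata2, Ralgds, Snx12 and Vps33a), which was so for 1.18% of the 15854 genes tested. They lay above all 6 saline withdrawal libraries for 4 (Spata2, Ralgds, Atxn7l1 and Vps33a), against 1.17% of genes. Above both groups they lay for 3 (Spata2, Ralgds and Vps33a), against 0.221%, and above every other pulled-down library for 2 (Spata2 and Ralgds), against 0.0442% or 7 genes. Since these values chose the genes, nothing is read from those shares. Without TMM factors the counts were 5 against nonescalating (1% of genes) and 3 against saline withdrawal (0.889%), Ralgds being lost. On that scale 1 member, Spata2, lay above every other pulled-down library (0.0378%). As counts relative to Drd2 in the same library, no member had all saline libraries above nonescalating or above saline withdrawal, where 0.0631% and 0.694% of all genes did. Drd2 itself was lowest in nonescalating replicate 4. In saline withdrawal it was lowest, at 876 CPM, in replicate 1 of set 1, where Spata2 counts were 8.83% of those of Drd2. The lowest saline share of Spata2 was 4.48%. For Vps33a, replicate 3 of saline withdrawal in set 2 (6.67%) also passed the lowest saline share (6.00%). Over all genes, edgeR called 0% of 15854 in either comparison at an adjusted p of 0.05, with 1068 and 1052 genes at an unadjusted p under 0.05 and 34 and 30 calls by DESeq2. The median log2 fold change of the 9 was -1.80 in nonescalating and -1.53 in saline withdrawal, against 0.01 and -0.05 over all genes tested. Both comparisons use the same 3 saline libraries.

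Leaving out each saline library in turn shows how much of these values came from 1 library. Without replicate 1, the log2 fold change in nonescalating moved from -2.04 to -0.65 for Gabpb2 and from -1.80 to -0.50 for Zfp142. The same step took Spata2 from -2.44 to -1.64, Cacul1 from -1.66 to -1.09 and Snx12 from -1.63 to -1.16. Ubr7 moved the other way, to -3.20, and Ralgds to -2.09, since replicate 1 was the lowest saline library for both. Atxn7l1 (-0.61) and Vps33a (-0.93) hardly moved. The median of the 9 became -1.09.

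In saline withdrawal, leaving out saline replicate 1 took Gabpb2 from -1.67 to -0.27 and Zfp142 from -2.10 to -0.81. Spata2 went from -1.75 to -0.95, Snx12 from -1.17 to -0.71 and Cacul1 from -1.91 to -1.34. Vps33a (-1.21) and Atxn7l1 (-1.47) stayed near their values with all libraries. Without saline replicate 3, Ralgds went from -1.85 to -1.26 in nonescalating and from -1.24 to -0.58 in saline withdrawal. Leaving out replicate 4 made 7 of the 9 fold changes in nonescalating larger in size, to -2.70 for Spata2 and -2.47 for Gabpb2. The fold changes of all 9 genes stayed negative in each of these leave-outs, a direction that the choice of the genes favours. With saline replicate 1 and nonescalating replicate 4 both left out, an alternative chosen after seeing the data, the median in nonescalating was -0.97.

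**Figure D2:**
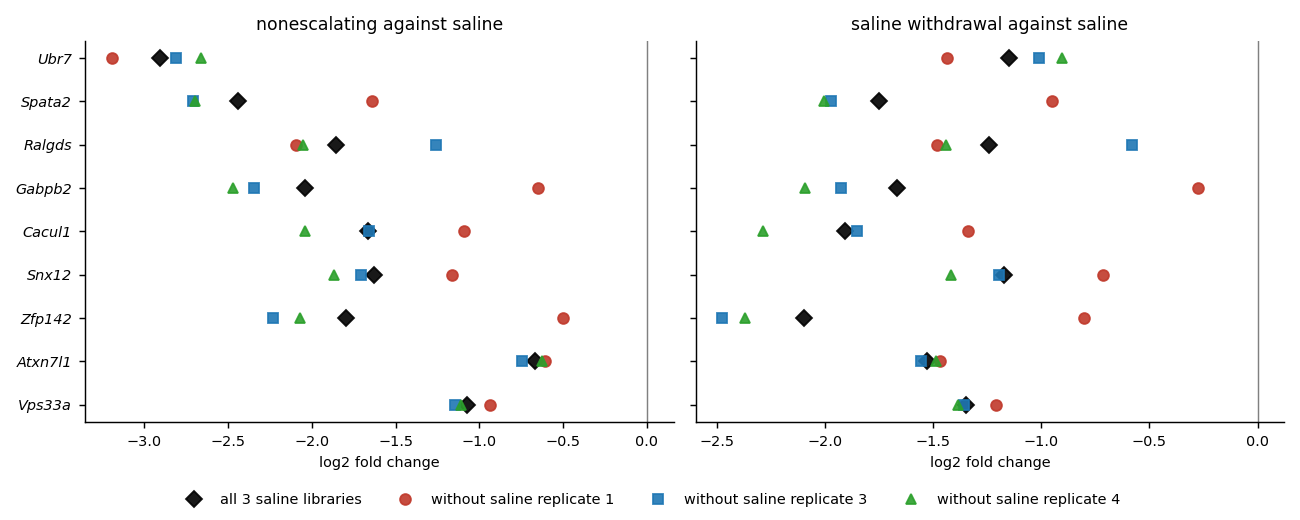
Log2 fold change of each gene against saline, in nonescalating (left) and saline withdrawal (right), with all 3 saline libraries (black) and with 1 left out (coloured). The points without replicate 1 lie nearest to 0 for all genes but Ubr7 and Ralgds, with the widest shifts for Gabpb2 and Zfp142. Nearest to 0 are the points without replicate 3 for Ralgds and those without replicate 4 for Ubr7. All points lie below 0.

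Escalating and nonescalating withdrawal libraries took no part in the choice of the genes, so the choice does not fix their comparison. The fit still drew its library set term partly from saline withdrawal, and its estimate of spread from all groups, which include those that chose the genes. With only the groups compared, 0 members and 0 genes were called. The comparison asks whether rising intake without withdrawal differs from stable intake with withdrawal, and intake and withdrawal cannot be told apart in it. Snx12 had the largest difference, with 195 CPM ± 46.4 (SD, n = 2) in escalating against 148 ± 92.3 (SD, n = 8), a fitted log2 fold change of 0.99 (SE 0.51, edgeR adjusted p = 0.69). Ubr7 (0.71, SE 0.71), Spata2 (0.63, SE 0.65), Cacul1 (0.45, SE 0.52), Atxn7l1 (0.35, SE 0.44) and Zfp142 (0.13, SE 0.61) also had positive values. Gabpb2 (-0.64, SE 0.63), Ralgds (-0.32, SE 0.53) and Vps33a (-0.32, SE 0.41) had negative ones. The median of the 9 was 0.35, against -0.12 over all genes. The groups overlapped for each of the 9 genes, and for Snx12 1 nonescalating withdrawal library exceeded both escalating ones. None of the 9 passed, as did 0% of 15854 genes in edgeR, with 1109 genes but no member at an unadjusted p under 0.05. DESeq2 called 174 genes and limma voom 3, again no member. With 2 escalating libraries the fold changes hang on each: without replicate 2 that of Ubr7 was -0.18, and without replicate 1 that of Zfp142 was -0.97. Without a term for the library set, Snx12 had 0.39, Vps33a -0.75 and Cacul1 turned to -0.31.

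The sets are read from the library numbers alone, and no label says what separates them. In nonescalating withdrawal, Cacul1 had 62.3, 54.3 and 59.8 CPM in the 3 libraries of set 1 and 88.5, 65.3, 99.5, 127 and 274 CPM in the 5 of set 2. In saline withdrawal it had 55.4, 46.5 and 43.5 CPM in set 1 and 138, 66.4 and 76.8 CPM in set 2. The fitted log2 fold change of Cacul1, set 2 against set 1, was 1.06 (SE 0.34, edgeR adjusted p = 0.142). Snx12 (0.83, SE 0.34, adjusted p = 0.263) and Vps33a (0.65, SE 0.26, adjusted p = 0.248) had the next largest differences in edgeR. The other 6 genes lay between -0.51 (Spata2, SE 0.43) and 0.27 (Atxn7l1, SE 0.29). None of the 9 passed in edgeR, against 0.915% of all genes (145 of 15854, 25 higher and 120 lower). An unadjusted p under 0.05 was found for 3 of the 9 and for 2138 of the 15854 genes. DESeq2 called 1 member, Cacul1 (adjusted p = 0.0458), among 679 genes. Saline withdrawal helped choose the genes, and within nonescalating withdrawal alone the values were 1.03 for Cacul1, 0.91 for Snx12 and 0.48 for Vps33a, with none of 8 members called, against 1.63% of 7052 genes. Spata2 did not pass the filter on low counts there. Without saline withdrawal replicate 1 of set 2, Snx12 had 0.54 and Cacul1 0.81.

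Nonescalating withdrawal RNA was also compared with input, the total RNA of the tissue, to see whether the pull-down changed the share of these messengers. The saline and nonescalating inputs had 153 and 152 CPM of Vps33a and 138 and 154 CPM of Snx12. They had 40.8 and 53.1 CPM of Spata2 and 42.2 and 20.2 CPM of Ubr7. Input levels come from a joint TMM scaling of all 26 libraries, and pulled-down levels from a scaling of the 24. On these scales the inputs lay inside the range of the 8 pulled-down libraries for these 4 genes. Snx12 had a log2 fold change of -0.65 (SE 0.49, edgeR adjusted p = 0.76) and Vps33a one of -0.63 (SE 0.40, adjusted p = 0.67). The remaining genes lay between -0.40 (Ubr7, SE 0.85) and 0.47 (Spata2, SE 0.76). None of the 9 passed, against 1.22% of 14614 genes (145 higher and 34 lower in the pulled-down RNA). None had an unadjusted p under 0.05, against 1622 of the 14614 genes. The test rests on 2 inputs, from animals without withdrawal. Leaving out the nonescalating input left 1 gene that passed. DESeq2 called 690 genes and limma voom 931, and no member.

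**Figure D3:**
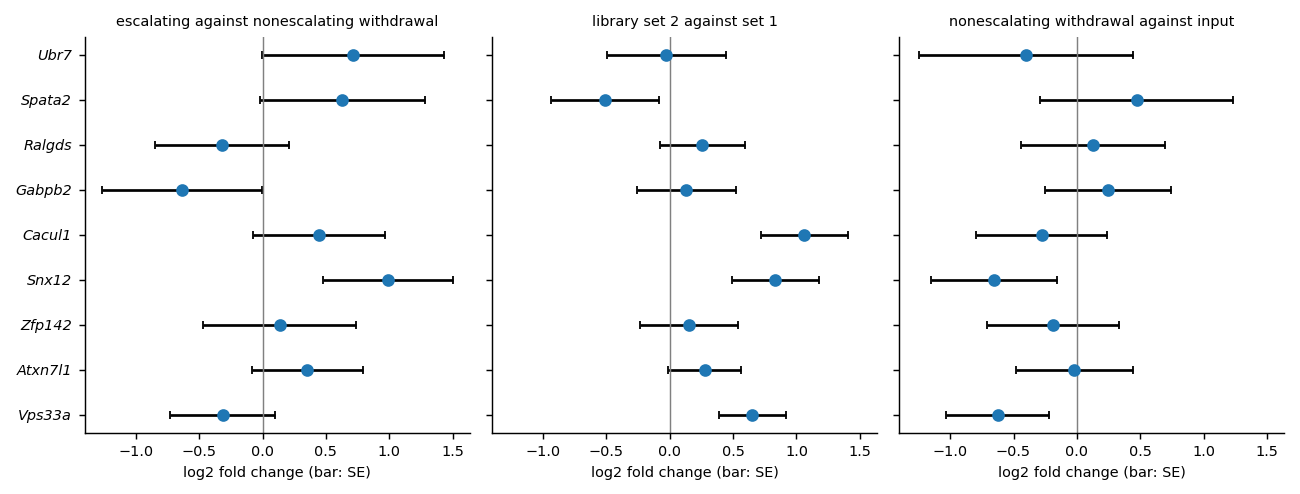
Log2 fold change of each gene, with its standard error as a bar, in 3 comparisons other than those that chose the genes. The middle panel includes saline withdrawal libraries, which helped choose them, and in it Cacul1, Snx12 and Vps33a lie furthest right, at 1.06, 0.83 and 0.65; no gene passed in edgeR in any of the 3.

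Across the 8 nonescalating withdrawal libraries, the 36 pairs among the 9 genes were compared to see whether they vary together outside the groups that chose them. Of the Pearson correlations of log2 CPM, 20 of 36 were positive, with a median of 0.09. Cacul1 and Snx12 had r = 0.91 (exact permutation p = 0.00186, adjusted over 36 pairs 0.0335) and Spearman's rho = 0.79 (exact permutation p = 0.0279, adjusted 0.251). Without the 2 libraries farthest from the median of Cacul1, r was 0.67, and without set 2 replicate 5 it was 0.81. Spata2 and Cacul1 varied in opposite directions, with r = -0.91 (exact permutation p = 0.00131, adjusted 0.0335) and rho = -0.93 (exact permutation p = 0.00223, adjusted 0.0804). For that pair r was -0.88 without the 2 libraries farthest from the median of Spata2, and -0.74 without set 2 replicate 5, where Spata2 had its 3 counts. The other 34 pairs did not pass, and all tests are two-sided. With 3 libraries in set 1 and 5 in set 2, no correlation within a set was computed, so the set and the shared variation of these genes cannot be told apart.

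**Figure D4:**
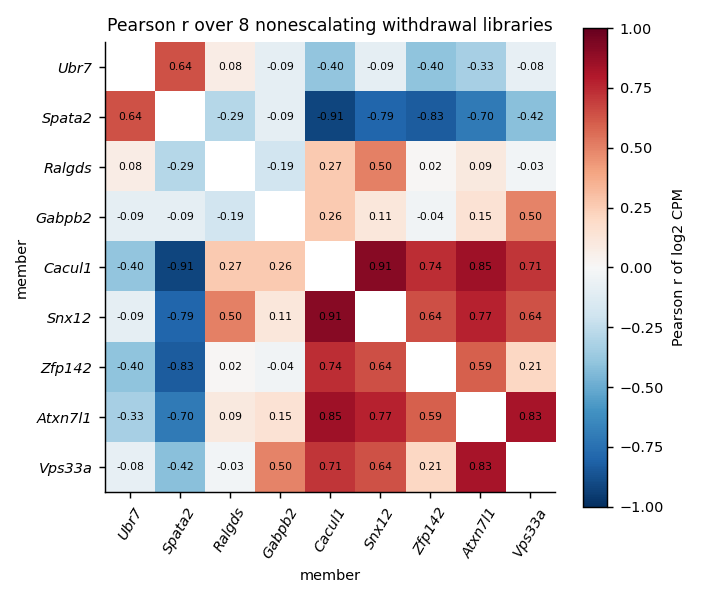
Pearson r of log2 CPM between each pair of the 9 genes over the 8 nonescalating withdrawal libraries, from -1 (blue) to 1 (red). Spata2 is negative with 7 of the 8 others, and Cacul1, Snx12, Zfp142, Atxn7l1 and Vps33a are positive with each other. Without set 2 replicate 5 (not drawn), Zfp142 had r = 0.15 with Cacul1, 0.14 with Snx12, -0.01 with Atxn7l1 and -0.16 with Vps33a. Spata2 then had 0.03 with Atxn7l1, while the pairs among Cacul1, Snx12, Atxn7l1 and Vps33a stayed positive. In the drawn data 2 pairs, Cacul1 with Snx12 and with Spata2, passed after adjustment.

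Genes that work with the members were gathered in 8 lists by function. Of 92 such genes, 91 were tested, and edgeR called none in nonescalating or saline withdrawal against saline (0% of all genes there). Fold changes were below 0 for 49 and 48 of the 91, with medians of -0.05 and -0.06, against 49.4% and 52.5% of all genes. An unadjusted p under 0.05 was found for 5 and 8 of the 91, against 1068 and 1052 of all 15854 genes. The gene with the smallest p of all lists in nonescalating was Ets2, an ETS transcription factor gene, at -1.51 (SE 0.42, edgeR adjusted p = 0.719). In saline withdrawal Ets2 had -0.38 (SE 0.45). Among 5 other UBR box genes the smallest p was that of Ubr4, at -0.53 (SE 0.31) and -0.74 (SE 0.32). The list around CYLD and linear ubiquitin had medians of -0.21 and -0.77. In that list 0 and 4 of 12 genes had an unadjusted p under 0.05, against the 1068 and 1052 of 15854. Its gene with the smallest p in nonescalating, the adaptor gene Traf2, had 0, 2 and 0 counts in saline and at most 9 in a nonescalating library, too few for a fold change. In saline withdrawal the smallest p was that of Tradd, another adaptor gene, named here after its values were seen. Tradd had 77, 5 and 22 counts in saline and 0 in all 6 saline withdrawal libraries. Of all genes, 1.17% had every saline library above every saline withdrawal library. Elsewhere Tradd was uneven, with 288 and 1 counts in escalating, 0 to 7 in nonescalating and 0 to 55 in nonescalating withdrawal. The saline and nonescalating inputs had 19 and 14. Of 13 genes of the Ral pathway 4 were below 0 in nonescalating and 8 in saline withdrawal, and Ralgps2, another Ral exchange factor gene, had -0.87 (SE 0.50) and -0.49 (SE 0.51).

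The list of sorting nexins and retromer genes had medians of -0.25 and -0.01, with Snx3, a retromer partner, at -0.68 (SE 0.45) and -0.24 (SE 0.47). Genes of HOPS and CORVET had positive medians, 0.13 and 0.24, and Vps41, a subunit of HOPS, had 0.99 (SE 0.54) and 1.08 (SE 0.58), opposite in sign to Vps33a. In the SAGA list the medians were 0.12 and 0.04, and Atxn7l3b had -0.87 (SE 0.38) and -0.38 (SE 0.40). In the list of cullins and CDK2 partners 10 of 13 genes were below 0 in nonescalating (median -0.43) and 5 in saline withdrawal (median 0.15). Its gene with the smallest p, Cul9, had 1.21 (SE 0.52) and 0.91 (SE 0.54). The ETS list had medians of -0.02 and -0.20.

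To describe which other genes look like the 9, each gene's log2 CPM was correlated with their mean standardized level over the 24 pulled-down libraries, with 8615 genes compared. Saline replicates 1, 3 and 4 were the 3 highest libraries in that mean, at 2.08, 1.09 and 0.90 SD, which the choice of genes favours, and the next was at 0.45. The highest correlations were those of Hipk3, a kinase gene (r = 0.69), Mycbp2 (0.67), Nt5m (0.67), Rbbp4 (0.66) and Huwe1 (0.66). Mycbp2 and Huwe1 encode large ubiquitin ligases, and Rbbp4 a histone-binding protein. The saline mean of Hipk3 was 380.0 CPM ± 158 (SD, n = 3), against 229.8 ± 48.6 (SD, n = 5) for nonescalating and 219.8 ± 22.6 (SD, n = 6) for saline withdrawal. Rbbp4 had 55.1 ± 23.1, 21.6 ± 8.22 and 22.3 ± 13.3 CPM in the same groups. Mycbp2 had 1246 ± 630, 770 ± 102 and 872 ± 112 CPM, and Nt5m 38.2 ± 30.0, 12.8 ± 6.27 and 20.2 ± 6.05. For Huwe1 the values were 1946 ± 487, 1351 ± 97.5 and 1336 ± 165 CPM. High saline means of these 5 genes are favoured by their pick, since the mean they were compared with was highest in saline. These correlations describe the 24 libraries, share their scaling, and are given with no test.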

How the data were processed

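The deposited files hold raw counts, 1 file a library and 1 row a gene symbol, as whole numbers with no scaling. Per the submitters' processing notes, the authors worked with STAR 2.0.0e and HTSeq on mm10. The sources used here give no HTSeq version, annotation or strand setting. Rows that name no gene were left out of all totals and fits. Gene positions are those of GENCODE M21 on GRCm38, to which mm10 corresponds.

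The 9 genes, the lists of partner and marker genes and the tests were chosen with earlier results of these data known. The motif search was chosen after seeing the data. Fits used edgeR 4.0.16 in R 4.3.3: quasi-likelihood test, scaling by TMM, a low-count filter by filterByExpr (minimum count 10), group and library set as terms over 24 libraries, Benjamini-Hochberg adjustment over all genes, threshold 0.05. The comparison with input was a separate fit of 10 libraries with fraction and set as terms. The SE of a fold change was derived from it and the F statistic. Fold changes between groups used to choose the genes carry no test. Alternatives were DESeq2 1.42.0, limma 3.58.1 voom with quality weights, median-of-ratios factors, other filters, a replicate block, fewer libraries and each library left out. Named besides the 9 genes and Drd2 are the gene with the smallest p of each partner list in nonescalating against saline and the 5 genes most correlated with the 9 (mean log2 CPM of at least 3). The scripts were tested on simulated data. No 2 libraries of 1 group agreed within sampling noise (lowest chi-square per degree of freedom 19.0 over 57 pairs).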

Additional observations from a re-analysis of the deposited data

Results flagged for a closer look

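In each group of 5, 6 or 8 libraries, the highest and the lowest value of each gene were set against the others by the gap to the nearest library over the whole range, at the 95% level of Dixon's criterion. Of 27 groups checked, 5 had a library that stood apart. The criterion's rate of about 1 in 20 groups holds only for independent groups of normally distributed values. Genes measured in the same libraries are not independent, so 5 of 27 cannot be set against that rate. All 5 were high values, and all lay in libraries of set 2. Replicate 5 of nonescalating withdrawal had 274 CPM of Cacul1, against 54.3 to 127 in the other 7 libraries. It also had 195 CPM of Zfp142, against 50.2 to 107, and 167 CPM of Atxn7l1, against 56.7 to 103. That library had the fewest counts in genes, 1.54 M (M is 1e6), and a median correlation with the others of 0.734. Replicate 1 of saline withdrawal had 138 CPM of Cacul1, against 43.5 to 76.8 in the other 5 libraries, and 263 CPM of Snx12, against 81.2 to 145. The saline group, with 3 libraries and used to choose the genes, was not checked in this way. Nonescalating and saline withdrawal libraries, which were checked, also helped choose the genes.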

How the results depend on the processing

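The fold changes of the 9 genes against saline stayed negative under all 18 alternatives in nonescalating and all 19 in saline withdrawal. The choice of the genes favours that direction. The median in nonescalating, -1.80, ranged from -2.05 to -1.09 with 1 library left out, the latter without saline replicate 1, and was -0.97 without that library and nonescalating replicate 4. In saline withdrawal it ranged from -1.69 to -1.21. With quality weights in limma voom, the medians were -1.14 and -1.23. Gabpb2 then had -0.91 in nonescalating and -0.86 in saline withdrawal, Zfp142 -1.13 in nonescalating and Cacul1 -1.19 in saline withdrawal. Members called stayed at 0 in the 3 other comparisons, except for 1 (Cacul1) in library set 2 against set 1 by DESeq2. DESeq2 called 34 genes in nonescalating and 30 in saline withdrawal against saline, 174 in escalating against nonescalating withdrawal, 679 between sets and 690 against input. limma voom called 3, 474 and 931 genes in the last 3 of these. For set 2 against set 1 (145 genes), only the groups compared gave 364 calls, and leaving out 1 library 50 to 203. For nonescalating withdrawal against input (179 genes), no filter gave 517 calls, no set term 22, set 1 alone 463, and leaving out 1 library 1 to 335. For escalating against nonescalating withdrawal, leaving out 1 library gave 0 to 3 calls. Without a set term, Cacul1 stood at -0.31 in the last comparison and at 0.50 against input, both opposite in sign to the fit with it. The cause of these changes was not tested.

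Whether replicate numbers pair the libraries could not be settled. Deviations from group means had a median r of 0.03 over 53 pairs with the same number (14 above 0.1). Over 190 other pairs the median r was 0.00073 (38 above 0.1), and 9 of 24 libraries correlated best with their own number. Pairs across library sets were counted too, and no label says what a shared number means there. With the replicate number as a block, the medians were -1.72 and -1.32, calls were 93 between sets and 539 against input, Ralgds had -0.89 against input, and no member or partner gene was called. A count of 3 corresponds to up to 1.95 CPM in the shallowest library, so Spata2 and Ubr7 are imprecise there.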
